A study of Homo sapiens with 8 samples.

Results

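Genes of retinoid uptake, oxidation and response, 9 of the 56269 genes in the expression tables, were followed across 8 RNA-Seq libraries of human cholangiocarcinoma (CCA) cells. They comprise the retinol transporter gene STRA6, the retinoic acid carrier CRABP2, the retinal reductase DHRS3, the retinal oxidases ALDH1A1, ALDH1A2 and ALDH1A3, the receptor RARB, and the responder genes RARRES1 and RARRES3. The members were chosen by their place in this pathway after drug effects in these same libraries were known, above all the values for both drugs against vehicle. Their drug responses are therefore a description. Counts of limma calls among them, and p-values for how a drug effect differed between lines, are given beside the values for all genes and support nothing about the choice. All 9 passed the filter of at least 1 TPM (a length-scaled share of the transcripts in a library) in at least 2 libraries, as did 16060 genes in all.

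The lines were SNU1079 and SSP25, both labelled wild type and grown for 48 hours in serum-containing medium. The study's own targeted sequencing found IDH1 and ARID1A mutations in SNU1079, so the wild type label does not cover those genes. Vehicle was 0.01% DMSO, BETp was 40 nM ARV825, a degrader of BET bromodomain proteins, and mTORi was 50 nM AZD8055, an inhibitor of the mTOR kinase. BETp + mTORi carries no doses in the labels, and no group is labelled as given a retinoid. Each treatment had 1 library per line, so the 2 lines stood as replicates (n = 2) and a drug effect within 1 line cannot be told apart from a difference between single cultures. TPM values keep no read depth, so the counting error of a low value is unknown, and in bulk RNA fewer cells expressing a gene and less RNA per cell cannot be told apart.

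Retinol enters cells partly through STRA6 and is oxidized first to retinal and then, by the ALDH1A enzymes, to retinoic acid. DHRS3 works in the opposite direction by reducing retinal back to retinol. CRABP2 delivers retinoic acid to nuclear retinoic acid receptors, which pair with RXR and bind direct repeats of a short half-site in DNA, the best known of which lies in the promoter of RARB itself. RARRES1 and RARRES3 were named for their induction by the retinoid tazarotene. In the liver, retinoid is stored mainly in stellate cells.

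Promoter stretches of 2 genes are shown because RARB carries the textbook retinoic acid response element and STRA6 had the lowest mean log2 difference of the members over the 2 lines under both drugs. They come from RefSeq windows of 250 bases before to 50 after a start site on GRCh38.p14, a different build from that of the expression files, and 8 of the 9 members were matched (all but RARRES3, now PLAAT4) with 18 windows. Capitals mark half-sites on either strand, in the spelling AGGTCA or with the variant letters AGTTCA or those of GGGTCA or those of GGTTCA, and TGACCT is the first of these read from the opposite strand. The RARB stretch is chr3:25428143-25428262 on the plus strand, bases -120 to -1. The STRA6 stretch is chr15:74212260-74212509 on the minus strand, bases -250 to -1 of its most upstream start.
RARB: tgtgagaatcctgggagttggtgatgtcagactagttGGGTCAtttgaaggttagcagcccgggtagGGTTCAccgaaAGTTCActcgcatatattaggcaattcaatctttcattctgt
STRA6: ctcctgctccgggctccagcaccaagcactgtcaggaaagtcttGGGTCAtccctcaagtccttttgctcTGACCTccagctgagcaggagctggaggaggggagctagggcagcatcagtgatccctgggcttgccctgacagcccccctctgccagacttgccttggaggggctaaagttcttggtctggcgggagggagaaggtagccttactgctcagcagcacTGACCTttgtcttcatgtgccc

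In RARB, half-sites at bases -53 to -48 and -42 to -37 form a direct repeat with 5 bases between them. Such a repeat was found in 1 of the 18 member windows and in 0.0883% of all 35116 windows. Single half-sites were common, in 9 of 18 member windows and 38.6% of all windows, and STRA6 held 3 of them in the stretch shown. Direct repeats with 1 or 2 bases between half-sites were in 0 of the 18 windows and in 0.131% and 0.0399% of all windows. These matches describe letters within the windows and do not show receptor binding.

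The label of the cells was checked against markers of bile duct and other cells. Biliary keratin genes were abundant in both lines, where KRT7, KRT8, KRT18 and KRT19 spanned 1167.24 to 3745.93 TPM in SNU1079 and 292.65 to 1035.16 TPM in SSP25. EPCAM stood at 59.73 to 101.17 TPM in SNU1079 but only 0.90 to 1.74 TPM in SSP25. The labelled tissue is liver, and the 6 hepatocyte genes summed to 9.04 to 43.66 TPM in SNU1079, of which SERPINA1 gave 7.64 to 41.75 TPM, and to 0.11 to 0.81 TPM in SSP25. ALB reached at most 0.21 TPM. The 7 stellate cell and fibroblast genes summed to 350.04 to 1059.54 TPM in SNU1079, mostly COL1A1 at 272.22 to 1002.53 TPM and ACTA2 at 54.11 to 75.76 TPM. In SSP25 they summed to 14.51 to 29.57 TPM, mostly LUM at 8.93 to 24.93 TPM, and DCN reached at most 0.19 TPM and PDGFRB at most 1.84 TPM in any library. The leukocyte gene PTPRC reached at most 0.24 TPM, while CD14 stood at 13.91 to 32.35 TPM in SSP25. The part of these genes in the members' values was not tested. Mitochondrial transcripts differed with treatment, at 14.4% of the TPM total with vehicle and 19.2% with both drugs in SNU1079, and at 5.99% and 10.1% in SSP25. The median change of all genes tested under both drugs was -0.19 on the log2(TPM + 1) scale.

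**Figure D1:**
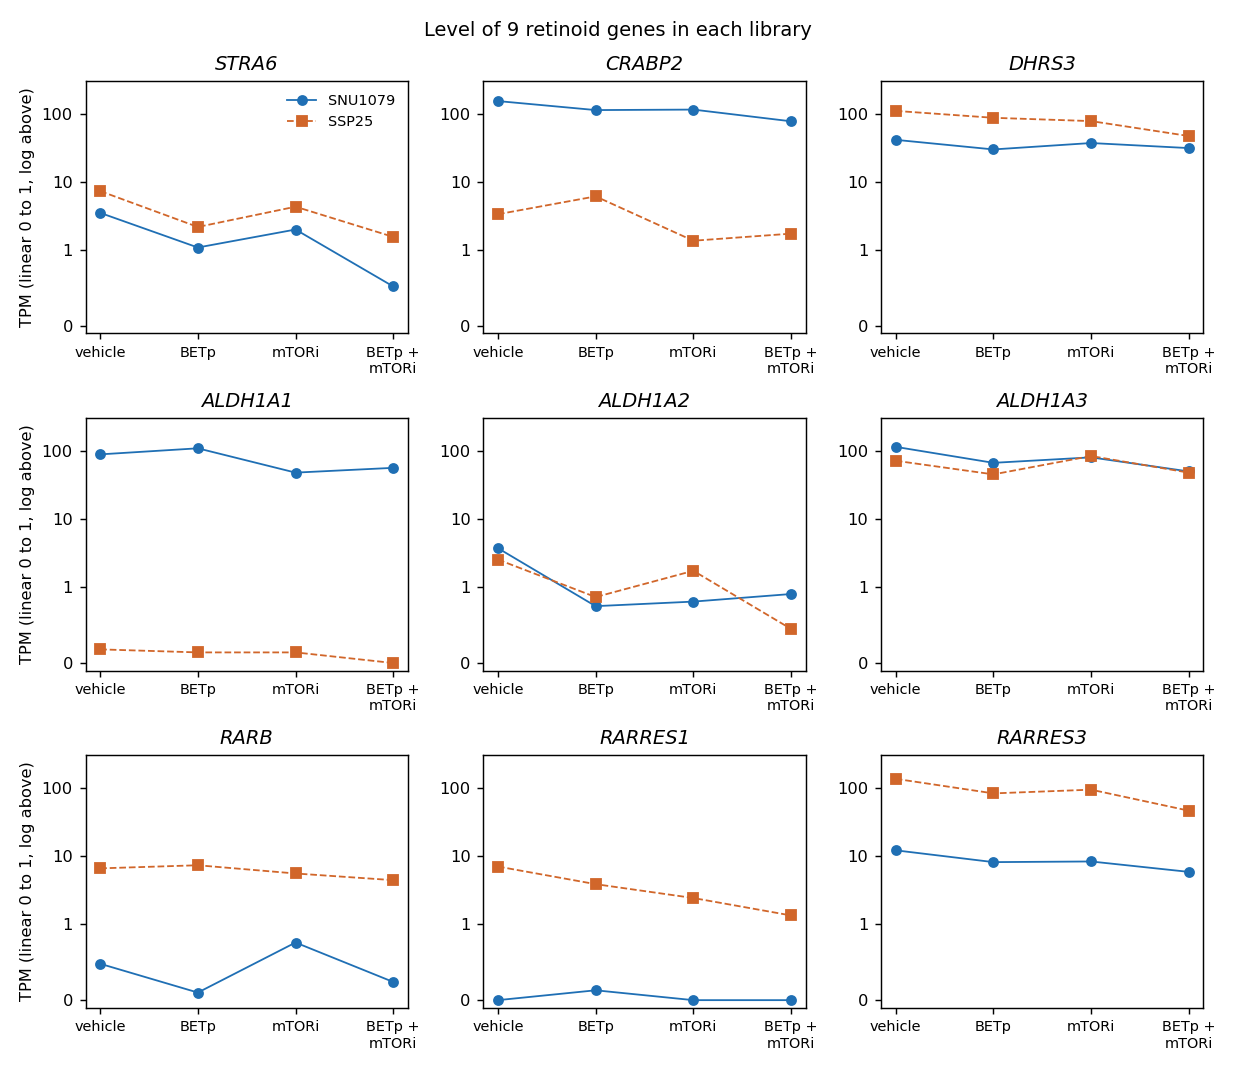
TPM of the 9 genes in each of the 8 libraries (y axis linear from 0 to 1 and logarithmic above), with vehicle, BETp, mTORi and BETp + mTORi along the x axis. Circles with solid lines are SNU1079 and squares with dashed lines SSP25, 1 library per point, and the lines join treatments of 1 cell line. ALDH1A1 and CRABP2 are high in SNU1079 only, RARB, RARRES1 and RARRES3 are higher in SSP25, and STRA6 is lowest with both drugs in each line.

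The lines differed most in which oxidation, carrier and responder genes they expressed. ALDH1A1 stood between 47.76 and 108.48 TPM in SNU1079 and at no more than 0.18 TPM in SSP25. CRABP2 averaged 114 TPM in SNU1079 and 3.15 TPM in SSP25, 36.3 times higher in the former (log2 difference of SSP25 minus SNU1079 -4.89 ± 0.24 SE, limma adjusted p = 2.72e-06). In contrast, RARRES3 averaged 8.63 TPM in SNU1079 and 89.8 TPM in SSP25, and DHRS3 34.8 and 80.2 TPM. On the log2 scale RARRES3 was 3.18 ± 0.12 higher in SSP25 (adjusted p = 9.37e-07) and DHRS3 1.13 ± 0.15 higher (adjusted p = 0.000423). Neither gene's libraries overlapped between the lines. How many of all genes lacked overlap was not counted, and 74% of all genes tested were called between lines. RARB spanned 0.10 to 0.76 TPM in SNU1079 but 4.44 to 7.34 TPM in SSP25, and RARRES1 spanned 0 to 0.13 and 1.35 to 7.03 TPM.

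ALDH1A3 and ALDH1A2 were not called between lines. ALDH1A3 averaged 77.5 TPM in SNU1079 and 61.9 TPM in SSP25, with overlapping libraries (log2 difference -0.30 ± 0.14, limma adjusted p = 0.0776). It was called lower in SSP25, as 1 of 8 members called, after quantile normalization, after rescaling without mitochondrial transcripts and without either mTORi library. ALDH1A2 averaged 1.55 and 1.40 TPM, a log2 difference of -0.03 ± 0.21 (adjusted p = 0.902). STRA6 averaged 1.78 and 3.85 TPM, and although its libraries overlapped between lines it was higher in SSP25 within each treatment (0.77 ± 0.13, adjusted p = 0.00127). Of the 9 members, 7 were called different between lines, 5 higher and 2 lower in SSP25, beside 74% of all genes tested. ALDH1A1, RARB and RARRES1 passed the filter through 1 line alone and so had to differ. Of the other 6 members 4 were called, and that share is near the background. These p-values measure how far the difference between lines varied from treatment to treatment, with n = 4 libraries per line. They do not cover the spread between repeat cultures.

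Retinal oxidation genes were next compared as a pool. In SNU1079 the summed TPM of ALDH1A1, ALDH1A2 and ALDH1A3 was 206 with vehicle, 176 after BETp, 129 after mTORi and 107 after both drugs. In SSP25 the sums were 74.0, 46.0, 85.5 and 48.2 TPM. The combination thus held the smallest pool in SNU1079, whereas in SSP25 both libraries with BETp were low and the mTORi library was the highest. ALDH1A1 made up 42.9%, 61.8%, 37.2% and 52.6% of the pool in SNU1079 in the same order, so its share was larger in each library with BETp than in its partner without. ALDH1A3 made up at least 96.3% of the pool in all SSP25 libraries.

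**Figure D2:**
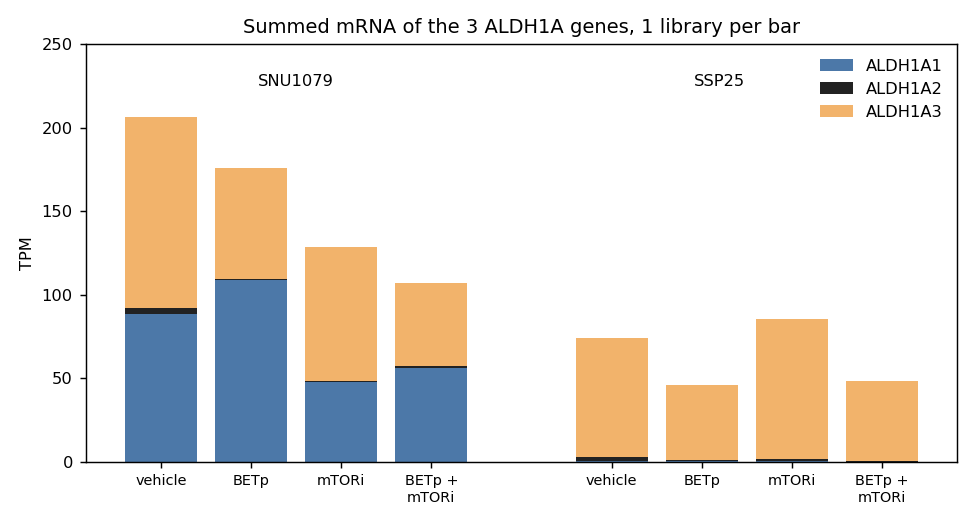
Summed TPM of ALDH1A1, ALDH1A2 and ALDH1A3 (y axis) in each of the 8 libraries (1 bar each, SNU1079 left and SSP25 right), with 1 colour per gene. The SNU1079 pool goes from 206 TPM with vehicle to 107 TPM with both drugs and is split between ALDH1A1 and ALDH1A3, while the SSP25 pool is almost all ALDH1A3.

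STRA6, the membrane transporter of retinol (GRCh37 chromosome 15, 74471807 to 74504608), had the lowest mean log2 difference over the lines, although RARRES1 and ALDH1A2 kept smaller shares of their vehicle level in SSP25 under both drugs (19.2% and 17.7%). In SNU1079 it measured 3.51 TPM with vehicle, 1.09 after BETp, 2.00 after mTORi and 0.52 after both drugs. In SSP25 it measured 7.32, 2.18, 4.32 and 1.56 TPM. The order was the same in both lines, with vehicle highest, then mTORi, then BETp, and the combination lowest. Relative to vehicle, the combination left 14.8% in SNU1079 and 21.3% in SSP25, where multiplying the levels of the single drugs gives 17.7% and 17.6%. The mean change was -1.63 ± 0.18 (SE, n = 2) for the combination, -1.25 ± 0.18 for BETp and -0.62 ± 0.18 for mTORi as differences in log2(TPM + 1), a scale on which low genes such as this one appear to change less than they do.

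RARRES3, a phospholipase family gene that retinoids induce (GRCh37 chromosome 11, 63304280 to 63313934), followed at much higher levels. It measured 12.15, 8.16, 8.34 and 5.87 TPM in SNU1079 with vehicle, BETp, mTORi and both drugs, and 135.62, 82.99, 94.08 and 46.29 TPM in SSP25. Vehicle was again the highest and the combination the lowest library in both lines. The combination left 48.3% of the vehicle level in SNU1079 and 34.1% in SSP25, against products of the single-drug levels of 46.1% and 42.5%. Its mean change was -1.23 ± 0.17 for the combination, -0.61 ± 0.17 for BETp and -0.51 ± 0.17 for mTORi.

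RARRES1, a membrane protein gene (chromosome 3, 158414681 to 158450278), was measurable in SSP25 alone. There it measured 7.03 TPM with vehicle, 3.88 after BETp, 2.43 after mTORi and 1.35 after both drugs, which is 19.2% of vehicle. In SNU1079 it was listed at 0 except for 0.13 TPM with BETp, so no change could be given in that line and its mean over both lines enters only the counts and medians. RARB, the retinoic acid receptor beta gene (chromosome 3, 24729378 to 25639423), likewise had low values. In SSP25 it stood at 6.61, 7.34, 5.56 and 4.44 TPM, where the combination was lowest but BETp alone was the highest. In SNU1079 its 4 values, 0.48, 0.10, 0.76 and 0.24 TPM, were all under 1 TPM.

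DHRS3, the retinal reductase (chromosome 1, 12627939 to 12678216), had its lowest value in the combination library of SSP25 only. In SSP25 it went from 109.52 TPM with vehicle to 86.77 after BETp, 77.61 after mTORi and 46.90 after both drugs, or 42.8% of vehicle. In SNU1079 it measured 41.25, 29.83, 37.03 and 31.22 TPM, so the combination was no lower than BETp alone. The mean change under the combination was -0.80 ± 0.22.

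CRABP2, which carries retinoic acid to its receptors (chromosome 1, 156669398 to 156675608), gave 152.55 TPM with vehicle, 112.59 after BETp, 114.46 after mTORi and 77.11 after both drugs in SNU1079. In SSP25 the values were 3.35, 6.12, 1.37 and 1.74 TPM. The 2 BETp libraries of SSP25 thus lay above their partners without BETp, and those of SNU1079 below theirs. The BETp effect was 0.96 ± 0.21 higher in SSP25 than in SNU1079. In the model of line-by-drug terms this did not pass (limma adjusted p = 0.24). The spread in that model is how far the 2 drugs departed from adding up within each line, not that between cultures.

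ALDH1A3 (chromosome 15, 101417919 to 101456831), which oxidizes retinal to retinoic acid, measured 113.93, 66.44, 79.94 and 49.68 TPM in SNU1079 and 71.27, 45.01, 83.64 and 47.71 TPM in SSP25. In both lines the 2 libraries with BETp lay below the 2 without. Adding mTORi gave lower values in SNU1079 and higher values in SSP25, a line difference of 0.61 ± 0.11 that did not pass (limma adjusted p = 0.231). ALDH1A1 (chromosome 9, 75515587 to 75695358) in SNU1079 went instead from 88.41 TPM with vehicle to 108.48 with BETp, and from 47.76 with mTORi to 56.12 with both drugs. Its 2 libraries with mTORi were thus the low ones. ALDH1A2 (chromosome 15, 58245622 to 58790065) measured 3.73, 0.75, 0.81 and 0.91 TPM in SNU1079 and 2.54, 0.87, 1.74 and 0.45 TPM in SSP25, with vehicle the highest in both lines. Antisense genes are annotated for ALDH1A2, ALDH1A3 and RARB, and although the library kit kept the strand, no source used here says whether the counting did, so reads of such a pair may not have been separated.

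**Figure D3:**
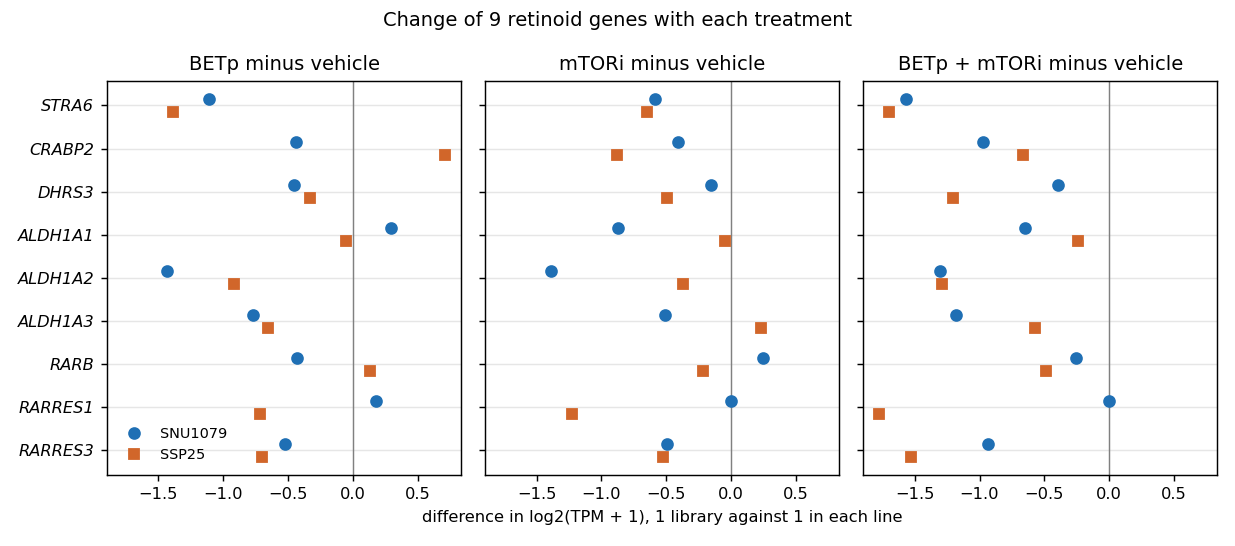
Difference from vehicle in log2(TPM + 1) (x axis) of the 9 genes (y axis) for BETp, mTORi and BETp + mTORi, with circles for SNU1079 and squares for SSP25, each point 1 library minus 1 vehicle library. Under both drugs the points lie below 0 except that of RARRES1 in SNU1079, where both libraries are at 0 TPM, and CRABP2 lies on opposite sides of 0 under BETp.

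BETp + mTORi against vehicle asked what both drugs did together, and is the comparison that led to the choice of these genes. Limma called 2 of 9 members lower, STRA6 and RARRES3, and none higher, beside 1.52% of all genes called lower and 1.81% called either way. Both calls were lost without any 1 of the vehicle, BETp or combination libraries, and stood without either mTORi library. They also became 0 with quantile normalization, no filter or no replicate block, and 1 (STRA6) with robust eBayes without trend. The members' median log2 difference was -0.88, with values from -1.63 to -0.37, beside -0.19 for all genes, and 8 of 9 lay below vehicle in both lines, beside 51% of all genes. The exception, RARRES1, was at 0 in SNU1079, and the 8 include ALDH1A1 in SSP25 and RARB in SNU1079, both under 1 TPM there. With TPM rescaled without mitochondrial transcripts the median was -0.80, and after quantile normalization, which put the median of all genes at 0.00, it was -0.65. In both scalings 8 of 9 members lay below vehicle in both lines, beside 43.1% of all genes after rescaling and 27.8% after quantile normalization.

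A stepwise order was less common than the overall direction. The combination was the lowest of the 4 libraries in both lines for STRA6 and RARRES3, 2 of 9 members, which is near the 21.9% of all genes. Vehicle was the highest library in both lines for 4 of 9, STRA6, RARRES3, ALDH1A2 and DHRS3, beside 18.6% of all genes.

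**Figure D4:**
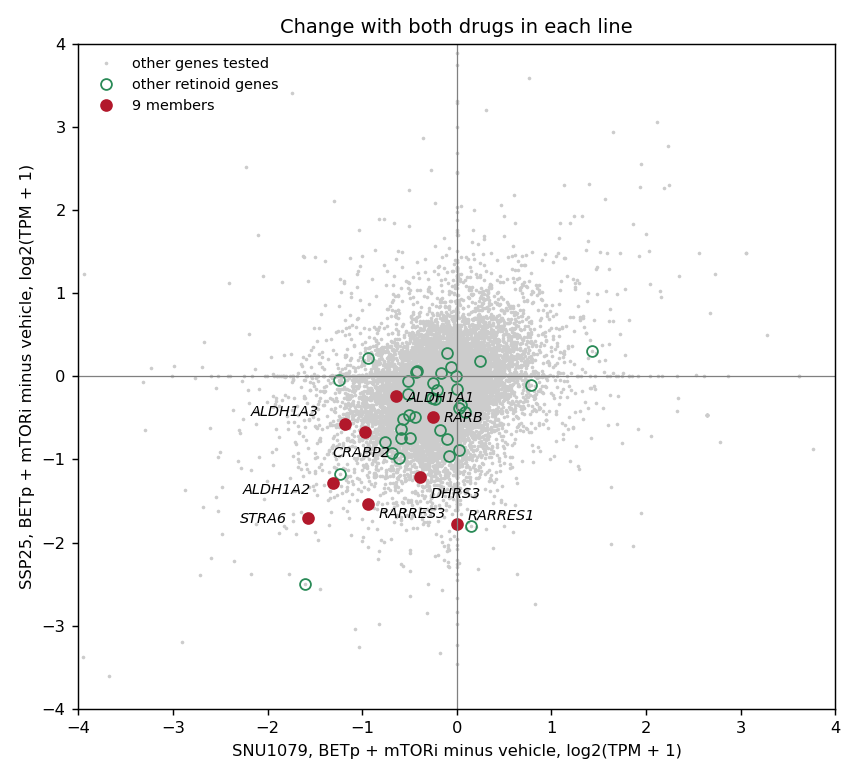
Change in log2(TPM + 1) from vehicle to both drugs in SNU1079 (x axis) and SSP25 (y axis) for the 16060 genes tested (grey dots), the 37 other retinoid genes tested (open circles) and the 9 members (filled, named). Axes end at 4 in either direction and 16 genes lie outside. In the lower left lie 8 members, with RARRES1 on the line of no change in SNU1079.

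Single drugs gave smaller median differences. For BETp against vehicle the members' median was -0.39, beside -0.07 for all genes, and 7 of 9 lay below 0, as did 63.5% of all genes. The median was -0.22 without the SSP25 vehicle library, -0.26 without the SNU1079 BETp library and -0.64 with a pseudocount of 0.1. Limma called 0 of 9, beside 0.00623% of all genes, and 4 were lower at an unadjusted p under 0.05, with 1429 of 16060 genes at such a p in either direction. For mTORi against vehicle the median was -0.51, beside -0.11 for all genes, and 8 of 9 lay below 0, as did 69.7% of all genes. Again 0 of 9 were called, beside 0.0125% of all genes, with 3 of 9 members and 1658 of 16060 genes at an unadjusted p under 0.05. These comparisons share the vehicle libraries with that of the combination.

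Averaging each drug over the presence of the other put 4 libraries on each side. For BETp, limma called STRA6 alone among the members (-1.13 ± 0.13), beside 0.417% of all genes, and this call was lost when any 1 of the 8 libraries was left out. RARRES3 measured -0.67 ± 0.12, ALDH1A2 -0.80 ± 0.21 and ALDH1A3 -0.72 ± 0.14. In both lines the 2 libraries with BETp lay below the 2 without for 3 of 9 members, STRA6, RARRES3 and ALDH1A3, beside 9.82% of all genes. With TPM rescaled without mitochondrial transcripts these were 2 of 9 members and 8.01% of all genes, and after quantile normalization 3 of 9 and 6.51%. For mTORi 0 of 9 members were called, beside 0.0249% of all genes, with 6 of 9 members and 3095 of 16060 genes at an unadjusted p under 0.05. The largest mean difference for mTORi was that of CRABP2, at -0.80 ± 0.24. None of the 9 had both mTORi libraries below both others in the 2 lines, beside 13.3% of all genes.

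Adding 1 drug to the other was compared last. With mTORi added to BETp, all 9 members had a mean difference below 0, from -0.96 for CRABP2 to -0.12 for ALDH1A2, as did 70.5% of all genes. Limma called 0 of 9, beside 0% of all genes, with 2 of 9 members and 1840 of 16060 genes at an unadjusted p under 0.05. With BETp added to mTORi, 8 of 9 were below 0, from -1.02 for STRA6 to 0.02 for ALDH1A1, as were 62.0% of all genes. Here 0 of 9 were called, beside 0.0125% of all genes, with 3 of 9 members and 2145 of 16060 genes at an unadjusted p under 0.05. For differences between lines in a drug effect, limma called 0 of 9 members for BETp, beside 0.00623% of all genes, and 0 of 9 for mTORi, beside 0%. At an unadjusted p under 0.05 these were 2 of 9 members and 1984 of 16060 genes for BETp, and 6 of 9 members and 2282 of 16060 genes for mTORi. RARRES1, ALDH1A1 and RARB were among the 6 for mTORi, and RARRES1 was among the 2 for BETp. These genes passed the filter through 1 line alone. Values under 1 TPM in the other line left little room for a drug effect there, so their line differences were partly built in.

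The wider pathway was described with 59 other retinoid genes, of which 58 were in the tables and 37 passed the filter. Under both drugs 1 of the 37 was called, beside 1.81% of all genes called either way. The gene called was the retinal reductase AKR1B10, which fell by 2.05 ± 0.34 (limma adjusted p = 0.0438). It stood at 41.07, 18.17, 15.92 and 12.83 TPM in SNU1079 with vehicle, BETp, mTORi and both drugs, and at 297.76, 226.97, 84.18 and 51.98 TPM in SSP25. The call was lost without any 1 of the 8 libraries. AKR1C3, a related reductase, measured -1.21 ± 0.23 and did not pass (adjusted p = 0.0516). Across the list the median was -0.36, and 21 of 37 lay below vehicle in both lines, near the 51% of all genes.

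By role, the carriers, stores and enzymes came out as follows under both drugs, where 51% of all genes were lower in both lines. Of 3 binding and transport genes tested, 2 were lower in both lines, among them FABP5, a carrier of fatty acids and retinoic acid, at -0.77 ± 0.17 (limma adjusted p = 0.0636). One of 4 genes of ester storage and carotenoid cleavage was lower in both lines. DGAT1 and PNPLA4 were each lower in SNU1079 and higher in SSP25, and LRAT was at 0 in all SSP25 libraries. Of 9 genes that interconvert retinol and retinal, 4 were lower and 1 higher in both lines. Of the genes of retinoic acid synthesis and breakdown 2 were tested, and the oxidase AOX1 was lower in both lines, at -0.79 ± 0.38 (adjusted p = 0.238). The other, CYP26B1, was lower in SNU1079 and at no more than 0.07 TPM in any SSP25 library. CYP26A1, a retinoic acid hydroxylase and sensitive target of the receptors that is named here after its values were seen, reached at most 0.24 TPM in any library and was not tested.

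Among receptors and coregulators, 8 of 10 genes tested were lower in both lines under both drugs and none was higher. Of all genes, 51% were lower in both lines. None of the 10 was called, beside 1.81% of all genes called either way. Their median log2 difference was -0.33, beside -0.19 for all genes. RARG, the gamma receptor, measured -0.67 ± 0.14 (limma adjusted p = 0.0614). Its vehicle and combination values were 35.10 and 23.01 TPM in SNU1079, against 25.53 and 14.84 TPM for SSP25. RARA and RXRA, named after their values were seen, had vehicle values of 43.10 and 10.10 TPM in SNU1079. For SSP25 these were 32.94 and 39.05 TPM, so mRNA of receptor genes other than RARB was found in both lines. Of 9 response genes tested, 4 were lower and 1 higher in both lines. PLAT, tissue plasminogen activator, measured -0.80 ± 0.20 (adjusted p = 0.0784) and the transglutaminase TGM2 -0.65 ± 0.34 (adjusted p = 0.277). From vehicle to both drugs TGM2 went from 372.98 to 156.53 TPM in SNU1079 but only from 266.74 to 258.53 TPM in SSP25. The gene higher in both lines was GPRC5A, a retinoic acid-induced receptor gene, at 0.86 ± 0.26 (adjusted p = 0.109). Its values were 193.59, 410.81, 225.71 and 521.61 TPM in SNU1079 and 108.97, 125.60, 113.00 and 134.50 TPM in SSP25, with the BETp libraries the high ones in both lines.

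Genes with the most similar course were found by Pearson's r of log2(TPM + 1) over the 8 libraries after removing each line's mean, among 10638 genes with a mean of at least 5 TPM. With so few libraries and so many candidates, high values are given as a description only. ALDH1A3 was followed most closely by PADI1 (r = 0.998) and ADGRB2 (r = 0.985). RARRES3 was followed by CDK5RAP2 (r = 0.991) and PRPF3 (r = 0.990), DHRS3 by OARD1 (r = 0.991) and SSR2 (r = 0.982), and RARB by TMEM255B (r = 0.985) and SLC27A3 (r = 0.982). For ALDH1A1 these were ARL6IP5 (r = 0.989) and XPNPEP1 (r = 0.987), and for CRABP2 TTLL4 (r = 0.983) and MTSS1L (r = 0.979). Among the members themselves RARRES3 ran with DHRS3 (r = 0.921) and STRA6 (r = 0.920), whereas ALDH1A1 and RARB ran apart (r = -0.36).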

How the data were processed

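For each cell line the authors deposited a table of TPM per gene, made from stranded paired-end libraries. Their processing notes name GRCh37, DESeq2 and edgeR without roles, and no source used here gives the aligner or annotation. The unit is not a count, so neither count tool was used and the depth per library is unknown.

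Values were transformed to log2(TPM + 1) for genes that reached 1 TPM in 2 libraries or more. Models of treatment and cell line (3 residual degrees of freedom), or of line-by-drug terms (2), were fitted by limma 3.58.1 in R 4.3.3 (eBayes with trend). On simulated data only BETp + mTORi against vehicle was checked, not the line-by-drug terms. P-values were two-sided, adjusted by Benjamini-Hochberg over all 16060 genes, with calls at 0.05. Samples pair by cell line, which was the block. With only the 2 lines as replicates, p-values for a drug measure how the lines differed in response, not the spread between repeat cultures. Those for line-by-drug terms rest on how far the 2 drugs departed from additivity on the log2 scale within each line. They do not measure the spread between cultures either. The spread of each gene, and so its SE, was moderated by eBayes toward that of all genes at a like level.

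The members and all lists were chosen with earlier results of these data known. Other retinoid genes were named if called, then by the largest change under both drugs at a mean of at least 5 TPM, up to 8. Likeness named 2 genes for each member with a mean of at least 5 TPM in a line. Positions are GENCODE 44 on GRCh37. Alternatives tried were leaving out single libraries, omitting the block, other filters (none, or 5 TPM), a 0.1 pseudocount, quantile normalization, and eBayes robust and untrended. Rescaling without mitochondrial transcripts was chosen after seeing the data.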

Additional observations from a re-analysis of the deposited data

Results flagged for a closer look

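CRABP2 differed between lines in its direction under BETp. Both BETp libraries lay below their partners in SNU1079 (152.55 to 112.59 TPM, and 114.46 to 77.11 TPM with mTORi present) and both lay above them in SSP25 (3.35 to 6.12 TPM, and 1.37 to 1.74 TPM). The BETp effect in SSP25 minus that in SNU1079 was 0.96 ± 0.21 on the log2 scale and did not pass (limma adjusted p = 0.24). SSP25 values were low, and their part in the difference was not tested.

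ALDH1A3 differed between lines in its direction under mTORi. Values went from 113.93 to 79.94 TPM, and from 66.44 to 49.68 TPM with BETp present, in SNU1079. In SSP25 they went from 71.27 to 83.64 TPM and from 45.01 to 47.71 TPM. The mTORi effect in SSP25 minus that in SNU1079 was 0.61 ± 0.11 and did not pass either (limma adjusted p = 0.231).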

How the results depend on the processing

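For BETp + mTORi against vehicle, the 2 members called became 0 with no filter, with quantile normalization and with no replicate block, and 1 with robust eBayes without trend, and ran from 0 to 2 with 1 library left out. STRA6, RARRES1 and ALDH1A2 could not be tested with the filter of 5 TPM, under which ALDH1A3 was called beside RARRES3. The 1 other retinoid gene called became 0 with a pseudocount of 0.1, no filter, quantile normalization, robust eBayes, no block and rescaling, 4 with the filter of 5 TPM (AKR1B10, AKR1C3, FABP5 and RARG), and 0 to 1 with a library left out (AKR1C3, without either mTORi library). The 1 member called for BETp averaged over mTORi became 0 with no filter, the 5 TPM filter, robust eBayes, no block, and each library left out. For other retinoid genes, counts for mTORi, averaged or against vehicle, ran from 0 to 1 with a library left out (AKR1C3 without the SSP25 mTORi library), and the filter of 5 TPM gave 1 call, GPRC5A, for the BETp effect between lines. A group left with 1 library was assumed to vary like the others. The cause of these changes was not tested.

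The members' median under both drugs (-0.88) was -1.07 with a pseudocount of 0.1, -0.65 after quantile normalization, and -1.17 to -0.86 with a library left out. That for BETp (-0.39) was -0.64 with that pseudocount and -0.57 to -0.22 with a library left out. That for mTORi (-0.51) was -0.55 with that pseudocount, -0.39 with the 5 TPM filter (6 members), -0.42 after quantile normalization, -0.485 after rescaling, and -0.51 to -0.38 with a library left out. Of 1149 values of single members under alternatives, 0 changed sign from a called value, 30 lost a call, 5 gained one and 44 uncalled values changed sign. Calls over all genes ran from 0 to 657 under both drugs (291 as reported), from 0 to 101 for averaged BETp (67), from 0 to 14 for averaged mTORi (4), from 0 to 37 for the BETp effect between lines (1), from 0 to 9 for that of mTORi (0), from 0 to 4 for each single drug against vehicle (1 and 2), from 0 to 1 for mTORi added to BETp (0) and from 0 to 8 for BETp added to mTORi (2).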

Other observations

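CRABP2 and FABP5, carriers that hand retinoic acid to different nuclear receptors, stood in opposite order in the 2 lines. In SNU1079 CRABP2 was the more abundant, with a ratio of CRABP2 to FABP5 in TPM of 1.43 with vehicle, 1.57 after BETp, 1.15 after mTORi and 1.23 after both drugs. In SSP25 FABP5 was the more abundant, with ratios of 0.249, 0.469, 0.119 and 0.235 in the same order. Each BETp library had a higher ratio than its partner without BETp in both lines, and each mTORi library a lower one. CRABP2 itself was lower in the BETp libraries of SNU1079 and higher in those of SSP25, where it was only at 1.37 to 6.12 TPM. These ratios come from 1 library each and carry no test.

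LRAT and CYP26B1 were chosen after their values were seen. LRAT, which esterifies retinol for storage, was found at 2.94 to 4.12 TPM in the SNU1079 libraries and was listed at 0 in all 4 SSP25 libraries. CYP26B1, a retinoic acid hydroxylase, was found at 6.75, 3.90, 7.78 and 4.42 TPM in SNU1079 with vehicle, BETp, mTORi and both drugs, where both BETp libraries were the low ones, and at no more than 0.07 TPM in SSP25.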
